A study of Gallus gallus with 6 samples.

Results

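Histone acetyltransferases, deacetylases, methyltransferases and demethylases were followed in HD11 cells, a chicken macrophage-like line, stimulated with IFN-beta, an antiviral cytokine of the type I interferon family. Members were taken by gene symbol: KDM, KMT, SETD, SETDB, HDAC, SIRT, KAT and PRMT genes, both EZH genes, EP300 and CREBBP. This gave 62 of the 14903 genes in the deposited tables. Families were also set by symbol, so a member need not have the activity its family is named for. One group of wild-type HD11 cells received recombinant chicken IFN-beta for 3 h, at a dose of 100 ng/mL (3 libraries). The mock group of the same wild-type line (3 libraries) is described in the treatment notes as untreated, with no time given. All 6 libraries were made from total RNA, carry the same batch label and are described as independent biological replicates. HD11 is 1 established line, so the libraries do not sample different animals. In such bulk samples, fewer cells of a type and less RNA per cell cannot be told apart.

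As families, these enzymes set and remove small chemical marks on histone tails. Acetyltransferases loosen chromatin and recruit bromodomain proteins, and deacetylases (HDACs and sirtuins) reverse this. Lysine methyltransferases write marks that go with active transcription or with silencing, depending on the lysine, and lysine demethylases erase them. In macrophages, p300/CBP act as coactivators for IRF and NF-kappaB factors, and HDAC activity is known from mammalian cells to be needed for transcription of interferon-stimulated genes.

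Library totals were 15665594 to 15885227 counts. The interferon response was present, since all 12 genes of a check list, among them OASL, IFIT5 and USP18, were higher in IFN-beta, with a median log2 fold change of 4.63. Macrophage markers were present in all libraries, with 14 of 16 found at a mean of at least 1 TPM (a transcript level normalised for length and depth). Their summed level was 5304 to 5365 TPM in IFN-beta and 4490 to 4621 TPM in mock, and the defining genes CSF1R, SPI1 and MARCO averaged 239, 551 and 616 TPM in IFN-beta and 276, 382 and 538 TPM in mock. Marker lists of B cells, T cells, red cells, thrombocytes and fibroblasts summed to at most 11.4 TPM in an IFN-beta library and 11.7 TPM in a mock library. In that order, 7 of 8, 6 of 8, 3 of 9, 4 of 5 and 4 of 6 listed genes were found. Genes not found add nothing to these sums, so the low sum for red cells says little. The heterophil list, which holds the avidin gene AVD and the receptor gene CSF3R, reached 838.5 to 863.9 TPM in IFN-beta and 285.9 to 304.1 TPM in mock. Its 2 tested genes went opposite ways, with AVD called higher (log2 fold change 3.50) and CSF3R lower (-0.34). The part of these markers in the results was not tested.

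All 62 histone enzyme genes passed the filter on low counts and were tested. With edgeR, 14 were called higher and 18 lower in IFN-beta at a Benjamini-Hochberg adjusted p under 0.05, and 30 were not called. Among all 11091 genes tested, 46.7% were called, 24.3% higher and 22.4% lower. These shares are also the background for the counts of each family and list below, which were not tested against them. The members' 22.6% called higher was near this background, and their 29.0% called lower compares with 22.4%, a difference that was not tested. Their median log2 fold change was -0.04, against -0.001 for all genes. Changes were mostly small. A change of at least 1.5-fold was called higher in 3 members (HDAC1, SETDB2 and KDM7A) and lower in 3 (HDAC7, HDAC11 and KDM5B), while 5.97% and 5.3% of all genes were called higher and lower at that size. The balance of calls depended on the scaling of the libraries. Under library size alone 8 members were higher and 27 lower, under upper quartile factors 10 and 25, and on log2(TPM + 1) with limma 5 and 27. The filtered fits on log2 TPM tested 61 members, without KDM5B, and 10156 genes in all. All genes tested moved the same way, with 1734 higher and 4008 lower under library size alone, 2020 and 3356 under upper quartile factors and 1376 and 3823 on log2(TPM + 1), against 2697 and 2480 with TMM factors. The median of all genes was itself -0.10 on log2(TPM + 1) and -0.11 on log2(TPM + 0.1), and relative to it the members' median was -0.03 and -0.04. None of the 32 called members was called in the other direction under any of 17 other settings of scaling, filter, tool or left-out library. HDAC1, HDAC2, SETDB2 and KDM7A were called higher in all of these, and 14 of the 18 genes called lower were called lower in every one of these settings that tested them. The scalings that shifted all genes to lower are among the 17, so higher and lower calls cannot be compared by these counts. The same share over all genes was not counted.

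**Figure D1:**
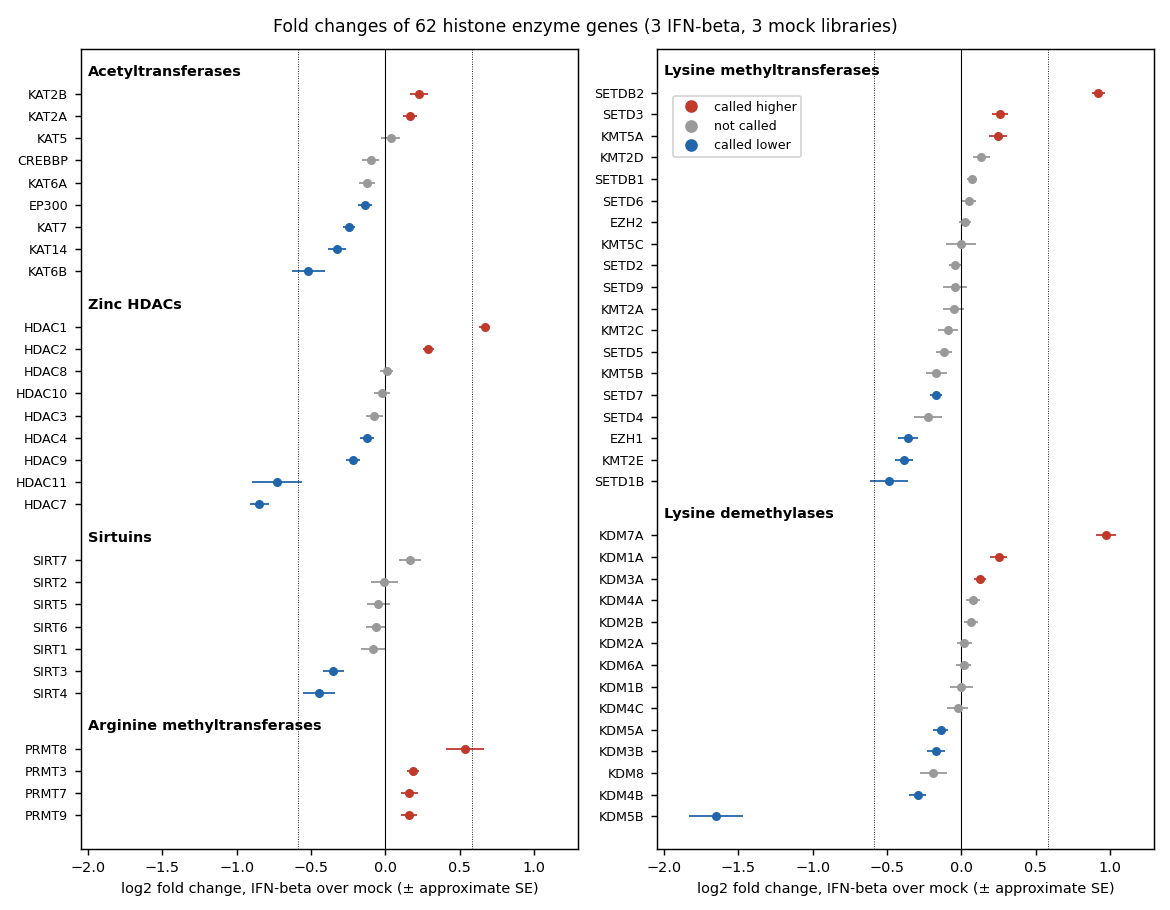
Log2 fold change of IFN-beta over mock for each of 62 genes, by enzyme family (points, with bars of ± the approximate SE; dotted lines mark 1.5-fold; 3 libraries per group). KDM7A, SETDB2 and HDAC1 lie right of the upper line, and KDM5B, HDAC7 and HDAC11 lie left of the lower line.

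Among the acetyltransferases, 2 of 9 were called higher and 4 lower, against 1 and 6 under upper quartile factors, 0 and 6 under library size alone and 0 and 5 on log2(TPM + 1). EP300, which encodes the coactivator p300, stood at 99.1, 95.7 and 90.2 CPM (counts scaled to library depth with TMM factors) in the IFN-beta libraries and at 106, 110 and 97.7 CPM in the mock libraries. One mock library lay within the IFN-beta range. The log2 fold change was -0.14 (SE 0.05, edgeR adjusted p 0.0290), and EP300 was not called in DESeq2, without IFN-beta replicate 2 or 3, without mock replicate 1 or 2, on log2(TPM + 1) without a filter, or with TMM factors computed separately for groups of genes of like transcript length (length-wise scaling). CREBBP, the paralogous coactivator CBP, stood at 40.3, 41.6 and 38.3 CPM in IFN-beta and 42.2, 45.6 and 40.8 CPM in mock, which overlapped (log2 fold change -0.10, SE 0.06), and was not called. It was called lower under upper quartile factors and under library size alone.

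KAT7, the catalytic subunit of the HBO1 complex, which acetylates histones at replication origins and promoters, had the highest TPM of the acetyltransferases, 49.4 ± 0.706 in IFN-beta and 63.3 ± 3.55 in mock (SD over 3 libraries, as for each ± given). It stood at 137, 138 and 139 CPM in IFN-beta against 166, 168 and 156 CPM in mock. Every IFN-beta library was below every mock library, and the gene fell by 0.24 on the log2 scale (SE 0.04, edgeR adjusted p 3.9e-05). KAT6B, a MYST-family enzyme, fell more, at 11.2, 12.9 and 9.55 CPM in IFN-beta against 16.4, 18 and 13.8 CPM in mock (log2 fold change -0.52, SE 0.11, edgeR adjusted p 0.000903). Its paralogue KAT6A stood at 66.1 ± 1.49 CPM in IFN-beta and 72.1 ± 5.28 CPM in mock (SD, n = 3 each) and was not called. It was called lower with the replicate block, under upper quartile factors, under library size alone, in the 2 filtered fits on log2 TPM and without mock replicate 3.

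The GCN5 family enzymes and a partner of theirs in the ATAC complex went opposite ways. KAT2A (GCN5) stood at 65.7, 66.9 and 65.0 CPM in IFN-beta and 56.9, 59.96 and 59.2 CPM in mock, and KAT2B (PCAF) had means of 39.2 ± 2.56 CPM in IFN-beta and 33.4 ± 1.19 CPM in mock (SD, n = 3 each). Both were called higher (log2 fold changes 0.17 and 0.23), but neither was called under library size alone or on log2(TPM + 1), and KAT2A not under upper quartile factors, with fold changes still above 0. KAT14, an acetyltransferase of the ATAC complex, was lower, with 54.7, 59.3 and 51.3 CPM in IFN-beta against 72.5, 70.1 and 64.6 CPM in mock (log2 fold change -0.33, SE 0.06, edgeR adjusted p 0.000137). KAT5 (Tip60) was not called, at 49.1 ± 2.23 CPM in IFN-beta and 47.9 ± 3.93 CPM in mock.

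Of 9 zinc-dependent deacetylases found by symbol, 2 of the 4 in class I were called higher. The 4 called lower were the 3 found in class IIa and the single gene of class IV. No gene listed as HDAC5 or HDAC6 was among the members, so the classes may not be complete here. The shares over all genes tested were 24.3% higher and 22.4% lower. When all genes tested were split by transcript length into 4 groups of equal size, HDAC4, HDAC7 and HDAC9 of class IIa lay in the longest. In that group 19.1% of all genes were called higher and 32.9% lower. Differences between classes, or from these shares, were not tested. Class IIa kept 2 of its 3 calls in 7 of the 17 other settings, among them DESeq2, and on log2(TPM + 1) class I had 2 higher and 2 lower. HDAC1 and HDAC2 are the paired catalytic subunits of the NuRD, SIN3 and CoREST corepressor complexes. HDAC1 stood at 199, 198 and 196 CPM in IFN-beta and at 125, 126 and 123 CPM in mock. The libraries of each group were within a few CPM of each other and the groups were far apart, a 1.59-fold increase (log2 fold change 0.67, SE 0.04, edgeR adjusted p 5.6e-12). HDAC2, the member of highest TPM in IFN-beta, stood at 205, 193 and 204 CPM in IFN-beta and at 165, 163 and 165 CPM in mock, 1.22-fold higher (0.29, SE 0.04, edgeR adjusted p 2.74e-06).

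The other class I enzymes were not called. HDAC3, a deacetylase of nuclear corepressor complexes, stood at 33.5, 33.2 and 31.5 CPM in IFN-beta and at 35.2, 34.1 and 34.0 CPM in mock. Those groups did not overlap, but the difference was small (log2 fold change -0.07, SE 0.06) and HDAC3 was called lower only under library size alone and in the 3 fits on log2 TPM. HDAC8, which deacetylates cohesin, stood at 133 ± 6.91 CPM in IFN-beta and 132 ± 3.79 CPM in mock (log2 fold change 0.01, SE 0.04). It was called lower in the 2 filtered fits on log2 TPM (log2 fold changes -0.10 and -0.11). The median of all genes in those fits was also -0.10 and -0.11, so HDAC8 did not stand apart from it.

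Class IIa enzymes are signal-controlled corepressors of MEF2 factors with little catalytic activity of their own. HDAC7 stood at 23.0, 26.5 and 23.0 CPM in IFN-beta and at 42.2, 42.9 and 45.4 CPM in mock. It was 1.80-fold lower (log2 fold change -0.85, SE 0.06, edgeR adjusted p 1.36e-09), with wide separation of the groups. HDAC9 was lower by a smaller amount, at 56.1, 54.9 and 54.6 CPM in IFN-beta and 65.3, 64.7 and 62.9 CPM in mock (-0.22, SE 0.05, edgeR adjusted p 0.000903). HDAC4 overlapped between groups, with 109, 106 and 102 CPM in IFN-beta and 123, 114 and 109 CPM in mock (-0.13, SE 0.05, edgeR adjusted p 0.0343). It was not called in DESeq2, with no filter, with length-wise scaling, or without IFN-beta replicate 2 or 3 or mock replicate 1 or 2.

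HDAC11, the class IV enzyme, reported in mouse macrophages as a regulator of IL10, was low in both groups. It had 37, 36 and 48 reads in IFN-beta and 67, 82 and 63 reads in mock, which is 2.40, 2.35 and 3.14 CPM against 4.14, 5.04 and 3.89 CPM. Each IFN-beta library was below each mock library, a 1.66-fold decrease (log2 fold change -0.73, SE 0.17, edgeR adjusted p 0.00141). HDAC10, a class IIb polyamine deacetylase, did not pass, at 36.0 ± 1.06 CPM in IFN-beta and 36.6 ± 1.54 CPM in mock.

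Sirtuins are NAD-dependent deacylases. None of 7 was called higher by edgeR or DESeq2 (1 higher and 2 lower at an unadjusted p under 0.05), and 2 were lower by both, each of them mitochondrial. SIRT3, the main mitochondrial deacetylase, stood at 18.5, 18.5 and 18.7 CPM in IFN-beta and at 24.5, 23.6 and 22.8 CPM in mock (log2 fold change -0.35, SE 0.07, edgeR adjusted p 0.000471). SIRT4 had means of 7.26 ± 0.404 CPM in IFN-beta and 9.89 ± 1.07 CPM in mock (-0.45, SE 0.11, edgeR adjusted p 0.00226). Both falls were called in all 17 other settings. SIRT5, also mitochondrial, was not called (-0.05, SE 0.08). SIRT7, a nucleolar enzyme, stood at 20.7, 20.3 and 20.4 CPM in IFN-beta and at 17.4, 18.6 and 18.8 CPM in mock. Its groups did not overlap, but it was not called (0.16, SE 0.07, edgeR adjusted p 0.0785). SIRT2, mainly cytosolic, was not called (-0.01, SE 0.09). Among the nuclear enzymes none was called. SIRT1, which deacetylates p53 and the p65 subunit of NF-kappaB, stood at 19.5, 17.8 and 19.5 CPM in IFN-beta and at 21.7, 19.97 and 18.4 CPM in mock, and SIRT6, the sirtuin of highest TPM, at 27.1 ± 0.364 CPM in IFN-beta and 28.3 ± 2.14 CPM in mock. These groups overlapped for both genes, and SIRT6 was called lower in the 3 fits on log2 TPM.

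**Figure D2:**
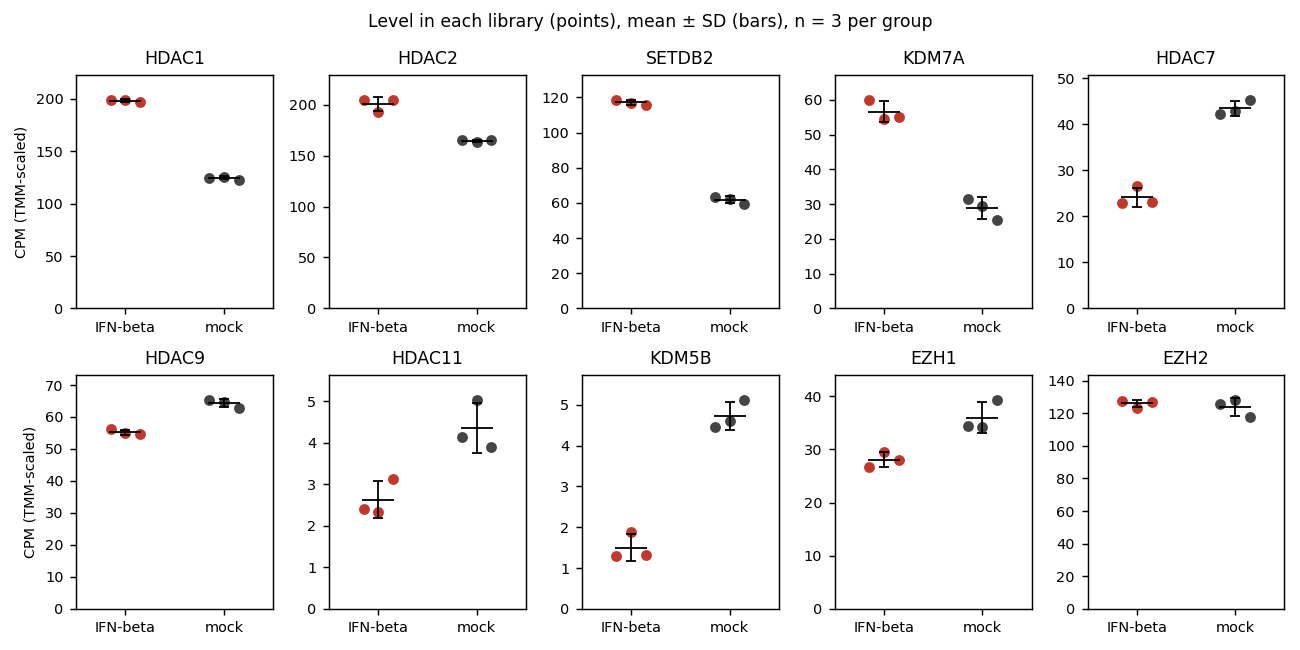
CPM (scaled by TMM factors, linear axes from 0) in each of 3 IFN-beta and 3 mock libraries for 10 genes, as points with mean ± SD. The groups are apart for each gene shown except EZH2, with the widest relative gap in KDM5B.

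Of 19 lysine methyltransferases, 3 were called higher, 4 lower and 12 were not called, against 3 higher and 8 lower under upper quartile factors, 3 and 9 under library size alone and 1 and 9 on log2(TPM + 1). The lower calls were 7 with the replicate block and 9 without mock replicate 3. SETDB2 is a methyltransferase of the SETDB family that acts on histone H3K9, a silencing mark, and is interferon-induced in mouse macrophages. It stood at 119, 117 and 116 CPM in IFN-beta and at 63.2, 62.5 and 59.6 CPM in mock. The groups were wide apart, and the increase was 1.90-fold (log2 fold change 0.92, SE 0.04, edgeR adjusted p 7.91e-13). Its paralogue SETDB1, which silences retroelements, stood at 148, 147 and 146 CPM in IFN-beta and at 139, 139 and 142 CPM in mock. That is a log2 fold change of 0.07 (SE 0.04), which was not called. It was called higher with length-wise scaling.

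EZH1 and EZH2 are alternative catalytic subunits of Polycomb repressive complex PRC2, which writes the H3K27 silencing mark. EZH1 stood at 26.8, 29.6 and 27.9 CPM in IFN-beta and at 34.4, 34.3 and 39.3 CPM in mock, and fell 1.28-fold (log2 fold change -0.36, SE 0.07, edgeR adjusted p 0.000196). EZH2, the paralogue typical of dividing cells, stood at 128, 123 and 127 CPM in IFN-beta and at 126, 128 and 118 CPM in mock, overlapping throughout (0.02, SE 0.04). In TPM, EZH2 had 61.3 ± 2.09 in IFN-beta and 65.5 ± 3.82 in mock, and EZH1 had 7.96 ± 0.356 in IFN-beta and 11.1 ± 0.679 in mock.

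The KMT2 and SETD1 enzymes methylate H3K4, the mark of promoters and enhancers. KMT2E, a member that regulates transcription without clear methyltransferase activity, stood at 48.9, 47.4 and 45.6 CPM in IFN-beta and at 65.0, 64.6 and 55.6 CPM in mock. Every mock library was above every IFN-beta library (log2 fold change -0.38, SE 0.06, edgeR adjusted p 3.18e-05). SETD1B was also lower, at 5.78 ± 1.03 CPM in IFN-beta and 8.10 ± 0.757 CPM in mock (-0.49, SE 0.13, edgeR adjusted p 0.00423). The reference table used for names calls that gene identifier SETD1A. KMT2A, KMT2C and KMT2D were not called, with log2 fold changes of -0.05, -0.09 and 0.13. Without mock replicate 3, KMT2A and KMT2C were called lower, and KMT2C also without IFN-beta replicate 1 and under library size alone, while KMT2D was called higher with the replicate number as a block, with length-wise scaling and without IFN-beta replicate 3.

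Other genes counted by symbol as lysine methyltransferases that were called differed by small amounts. SETD3, which methylates actin at a histidine, stood at 90.5, 82.2 and 82.6 CPM in IFN-beta against 75.2, 72.2 and 65.7 CPM in mock, and KMT5A, the enzyme of H4 monomethylation in mitosis, at 38.4 ± 2.10 CPM in IFN-beta and 32.4 ± 2.02 CPM in mock. Both were called higher (log2 fold changes 0.26 and 0.25, edgeR adjusted p 0.000653 and 0.00267), and neither was called in the fits on log2 TPM. SETD7, a lysine methyltransferase with many non-histone substrates, fell by 0.17 on the log2 scale, at 207 ± 7.48 CPM in IFN-beta and 234 ± 11.98 CPM in mock. SETD2, the enzyme of H3K36 trimethylation, stood at 279, 294 and 275 CPM in IFN-beta and at 294, 301 and 278 CPM in mock, which overlapped, and was not called (-0.04, SE 0.04). It was called lower under upper quartile factors, under library size alone and on filtered log2 TPM. KMT5B, KMT5C, SETD4, SETD5, SETD6 and SETD9 were not called either, with log2 fold changes of -0.22 (SETD4) to 0.05 (SETD6). SETD4, SETD5 and KMT5B were each called lower under upper quartile factors, library size alone, the replicate block, on filtered log2 TPM and without mock replicate 3. SETD4 and SETD5 were also called lower on log2(TPM + 1) without a filter. The same held for SETD4 with length-wise scaling and without IFN-beta replicate 2, and for SETD5 without IFN-beta replicate 1. SETD9 was called lower in the 3 fits on log2 TPM.

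All 4 arginine methyltransferases found by symbol were called higher, by small amounts. Of all genes tested, 24.3% were called higher, and the difference was not tested. Only 1 of the 4 was called under library size alone and on log2(TPM + 1), and 2 under upper quartile factors. On log2(TPM + 1) without a filter none was called. No gene listed as PRMT1, PRMT5 or PRMT6 was among the members, so the family may not be complete here. PRMT3, which methylates a ribosomal protein, stood at 112, 106 and 110 CPM in IFN-beta and at 99.3, 96.0 and 93.6 CPM in mock (log2 fold change 0.19, SE 0.04, edgeR adjusted p 0.00124). PRMT7 and PRMT9 had log2 fold changes of 0.16 each (edgeR adjusted p 0.0263 and 0.0151). PRMT7 was not called in 11 of the 17 other settings, among them each fit without 1 library except that without mock replicate 2. Without IFN-beta replicate 3 neither PRMT7 nor PRMT9 was called, which left 2 of the 4 genes. The gene listed as PRMT8, which the reference table names PRMT1, stood at 6.82, 6.71 and 6.87 CPM in IFN-beta and at 5.63, 4.42 and 4.01 CPM in mock (0.54, SE 0.13, edgeR adjusted p 0.00217). PRMT8 and PRMT1 are close paralogues, so its identity and level are uncertain. All 4 fold changes stayed above 0 under each of the 17 settings. PRMT8 was the gene still called under library size alone and on log2(TPM + 1), and DESeq2 called PRMT3 and PRMT8.

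Among the 14 lysine demethylases, 3 were called higher and 4 lower, against 2 and 5 under upper quartile factors and library size alone, 1 and 4 on log2(TPM + 1) and 5 and 4 with length-wise scaling. KDM5B fell below the level filter of the fit on log2(TPM + 1) and was not tested there. The 4 lower calls became 2 without IFN-beta replicate 2 or 3 and without mock replicate 1 or 2, and the 3 higher calls became 2 without IFN-beta replicate 2. KDM7A, a JmjC enzyme with a PHD finger that removes the H3K9 and H3K27 marks of silencing, stood at 60.1, 54.6 and 55.1 CPM in IFN-beta and at 31.5, 29.6 and 25.4 CPM in mock. This was the largest increase among members, 1.96-fold (log2 fold change 0.97, SE 0.07, edgeR adjusted p 3.89e-10). KDM6A (UTX), which also demethylates H3K27, did not differ detectably, at 61.4, 60.5 and 60.9 CPM in IFN-beta and 62.7, 59.7 and 58.5 CPM in mock (0.02, SE 0.05).

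KDM5B, an eraser of the H3K4 mark, had the largest fold change of any member and the lowest level. It had 20, 29 and 20 reads in IFN-beta and 72, 75 and 83 reads in mock, or 1.299, 1.89 and 1.31 CPM against 4.45, 4.61 and 5.12 CPM. The groups were far apart, a 3.14-fold decrease (log2 fold change -1.65, SE 0.18, edgeR adjusted p 3.21e-07). Its paralogue KDM5A had a higher level, 12.3 ± 0.350 TPM in IFN-beta and 14.6 ± 1.29 TPM in mock, and overlapped between groups, at 80.9, 79.9 and 79.3 CPM in IFN-beta and 93.2, 90.7 and 80.4 CPM in mock (-0.14, SE 0.05, edgeR adjusted p 0.0361). KDM5A was not called in 8 settings, among them DESeq2, length-wise scaling and each fit without 1 library except that without mock replicate 3.

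KDM1A (LSD1), the flavin-dependent H3K4 demethylase of the CoREST complex, stood at 61.97, 59.8 and 55.6 CPM in IFN-beta and at 50.01, 52.3 and 46.5 CPM in mock (log2 fold change 0.25, SE 0.06, edgeR adjusted p 0.00119). It was not called in the fits on log2 TPM. KDM3A, an H3K9 demethylase and the demethylase of highest TPM, stood at 164, 164 and 160 CPM in IFN-beta and at 157, 146 and 142 CPM in mock (0.13, SE 0.04, edgeR adjusted p 0.0149), and was not called under library size alone, under upper quartile factors, on log2 TPM or without IFN-beta replicate 2. KDM4B, a demethylase of H3K9 and H3K36, was lower, at 49.8, 47.6 and 50.05 CPM in IFN-beta and 64.8, 59.2 and 56.9 CPM in mock (-0.29, SE 0.06, edgeR adjusted p 0.000239). KDM3B was called lower by 0.17 with overlapping groups, and was not called without IFN-beta replicate 2 or 3, without mock replicate 1 or 2, or on log2(TPM + 1) without a filter. KDM2A, KDM2B, KDM4A, KDM4C, KDM1B and KDM8 were not called, with log2 fold changes of -0.19 to 0.08. KDM2A, the H3K36 demethylase, stood at 81.4 ± 3.05 CPM in IFN-beta and 80.2 ± 5.31 CPM in mock. KDM8, a JmjC protein now known as an arginyl hydroxylase, stood at 11.3 ± 0.662 CPM in IFN-beta and 12.9 ± 0.846 CPM in mock. Its groups did not overlap, and it was called lower under upper quartile factors, under library size alone, in the 3 fits on log2 TPM and with length-wise scaling.

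Levels can be compared between genes in TPM. HDAC2 was highest by the mean over all libraries, with 152 ± 6.60 TPM in IFN-beta and 134 ± 2.25 TPM in mock, next to HDAC8, with 134 ± 4.57 TPM in IFN-beta and 144 ± 3.44 TPM in mock. HDAC2 was above HDAC8 in each IFN-beta library and below it in each mock library, so their order was not the same in the 2 groups. HDAC1 was next in IFN-beta, at 82.7 ± 2.28 TPM. At 56.3 ± 1.69 TPM in mock it lay below PRMT3, EZH2, KAT7 and SETD6 in every mock library, and below SETD3 by its mean (58.6 TPM). PRMT3 stood at 70.3 ± 3.15 TPM in IFN-beta and 66.3 ± 2.86 TPM in mock, and its range overlapped that of EZH2 in mock but not in IFN-beta. Lowest by the mean over all libraries were KDM5B, SETD1B and HDAC11, with 0.350 ± 0.0781, 1.15 ± 0.223 and 1.31 ± 0.255 TPM in IFN-beta and 1.19 ± 0.0709, 1.75 ± 0.191 and 2.49 ± 0.525 TPM in mock, where PRMT8 was lower than HDAC11 by its mean (2.11 TPM). Of the 31 members with the higher mean level (15.74 to 143 TPM over all libraries), 10 were called higher and 6 lower, and of the 31 with the lower level (0.772 to 15.1 TPM), 4 were called higher and 12 lower. All genes tested in the same ranges of TPM showed a like contrast. In the upper range 31.0% of 4736 genes were called higher and 19.4% lower (32.3% and 19.4% of the members), and in the lower range 16.7% of 4364 genes were called higher and 30.3% lower (12.9% and 38.7% of the members).

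**Figure D3:**
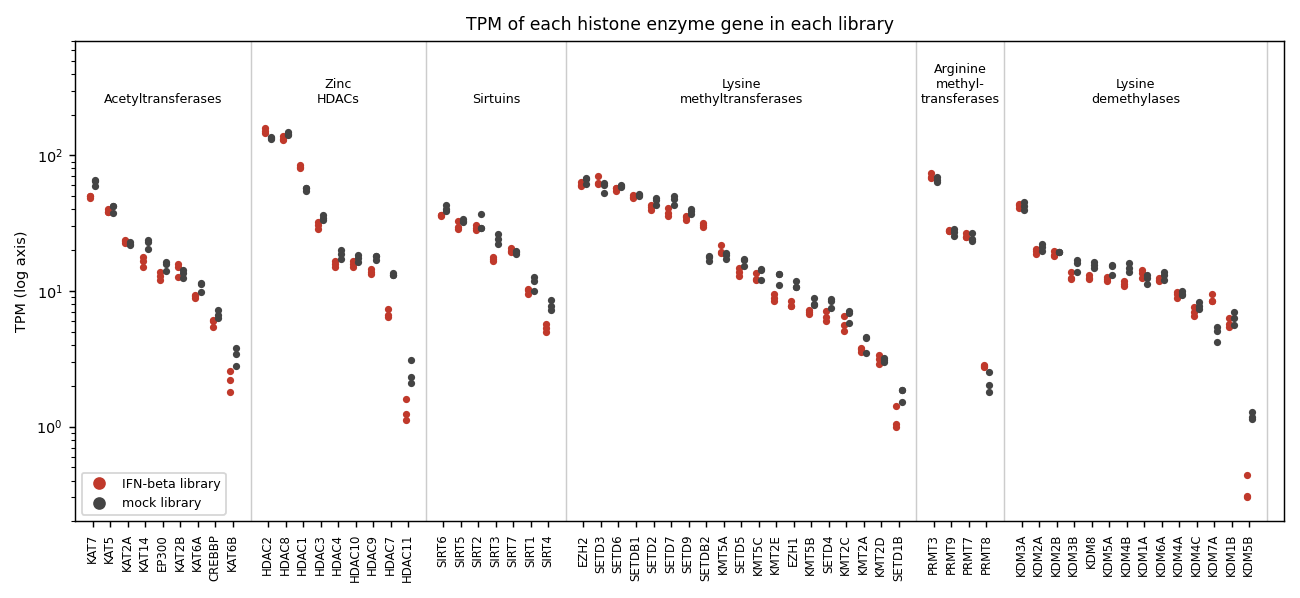
TPM (log axis) of each of 62 genes in each IFN-beta library (red, left of each pair) and mock library (grey, right), ordered by level within each family. Levels span from under 1 TPM for KDM5B in IFN-beta to about 150 TPM for HDAC2.

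Direction of change differed with transcript length. Reads per unit of TPM are proportional to the length the authors used, and all genes tested were split by this value into 4 groups of equal size. The longest group held 29 of the 62 members. Of these 29, 4 were called higher and 13 lower (13.8% and 44.8%), against 19.1% and 32.9% of all genes in that group. Of the other 33 members, 10 were called higher and 5 lower (30.3% and 15.2%), against 26.1% and 18.8% of all genes in the other groups. The median log2 fold change of all genes was 0.05 in the shortest group and -0.08 in the longest. Libraries of the same group also differed along length. For all genes of the longest group, the median deviation from the group mean was 0.04, -0.01 and -0.03 (log2) in IFN-beta replicates 1, 2 and 3, and 0.04, 0.02 and -0.06 in mock replicates 1, 2 and 3. Mock replicate 3 had the lowest level of the 3 mock libraries for 40 of 62 members. Without it 13 members were called higher and 24 lower. Of all 11184 genes tested in that fit, 2808 were called higher and 2622 lower, and the difference was not tested.

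When TMM factors were computed separately in 10 groups of genes by length, an alternative chosen after seeing the data, 18 members were called higher and 17 lower, with a median of -0.03. Calls over all 11091 genes tested also rose, to 2919 higher and 2667 lower, from 2697 and 2480. EP300, HDAC4 and KDM5A were then not called, and KDM2B, KDM4A, KMT2D and SETDB1 were called higher and KDM8 and SETD4 lower. Each of the 6 changes of at least 1.5-fold was called again.

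**Figure D4:**
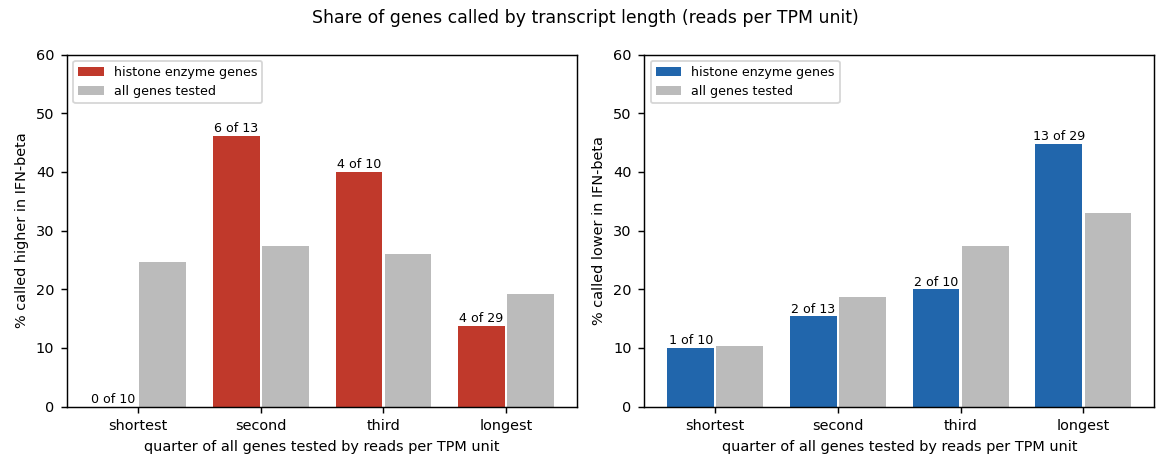
Share of genes called higher (left) and lower (right) in IFN-beta, for histone enzyme genes (coloured, with counts) and all genes tested (grey), in 4 equal groups of all genes by reads per TPM unit, a measure of transcript length. In the longest group 13 of 29 histone enzyme genes were called lower.

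The groups did not overlap in CPM for 36 of 62 members, against 53.9% of all genes tested. Of the 32 called members, 4 had overlapping groups (EP300, HDAC4, KDM3B and KDM5A). In the authors' deposited table, 12 members had an adjusted p under 0.05 and were higher and 14 were lower, and all 26 were called with the same sign by edgeR here. The share of all genes under that threshold in the authors' table was not counted, so these counts have no background beside them. The 6 calls made by edgeR alone were EP300, HDAC4, KDM3B, KDM5A, PRMT7 and PRMT9. With a test against a 1.5-fold change (edgeR's glmTreat), SETDB2 and KDM7A were higher and HDAC7 and KDM5B lower. Of all 11091 genes tested, 416 were higher and 246 lower by that test, and a difference from the members was not tested.

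Complex partners and readers outside the 62 genes were taken as 7 lists, which together held 184 tested genes. Of these, 39 were called higher and 49 lower (21.2% and 26.6%), with a median log2 fold change of -0.04, and these shares were near the 24.3% and 22.4% of all genes. The split was 23 and 72 under upper quartile factors, 20 and 86 under library size alone and 16 and 85 on log2(TPM + 1), scalings under which calls over all genes also shifted to lower. Among Polycomb subunits, 5 of 23 were higher and 7 lower (4 and 12 under library size alone). RNF2, the ubiquitin ligase subunit of Polycomb complex PRC1, stood at 26.7, 22.7 and 27.5 CPM in IFN-beta and at 11.8, 10.8 and 9.82 CPM in mock, a 2.37-fold increase (log2 fold change 1.25, SE 0.09, edgeR adjusted p 1.23e-09). CBX7, a reader subunit of PRC1, stood at 8.12, 7.30 and 5.63 CPM in IFN-beta and at 13.2, 14.2 and 12.5 CPM in mock (-0.92, SE 0.12, edgeR adjusted p 1.93e-06). SUZ12, a core PRC2 subunit, was 1.25-fold higher, at 204 ± 5.82 CPM in IFN-beta and 163 ± 2.31 CPM in mock.

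Among corepressor subunits that carry HDACs, 7 of 33 were higher and 11 lower (4 and 19 under library size alone). SIN3A, the scaffold of the SIN3 complex, stood at 101.5 ± 3.62 CPM in IFN-beta and 127 ± 3.82 CPM in mock. It fell (log2 fold change -0.32, edgeR adjusted p 3.27e-06), as did ANKRD11 (-0.42). HDAC1 and HDAC2, which SIN3A binds, were higher by the values above.

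Subunits of acetyltransferase complexes were higher in 10 of 51 and lower in 13 (3 and 22 under library size alone). NCOA2, a nuclear receptor coactivator, stood at 27.3 ± 1.90 CPM in IFN-beta and 44.6 ± 2.22 CPM in mock (-0.71, SE 0.06, edgeR adjusted p 1.23e-08). MSL1 was lower (-0.39) and TAF9, a subunit of TFIID and SAGA, higher (0.41). None of 11 COMPASS subunits, the partners of KMT2 enzymes, was called by edgeR, nor by DESeq2, with log2 fold changes of -0.09 to 0.06 (0 in each direction at an unadjusted p under 0.05), while 4 were called lower under upper quartile factors and library size alone, 6 on log2(TPM + 1), and 1 higher and 2 lower with length-wise scaling.

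Readers of acetylated and methylated lysine were higher in 11 of 45 and lower in 15 (6 and 22 under library size alone). BRD2, a bromodomain protein that binds acetylated H4, stood at 305, 306 and 302 CPM in IFN-beta and at 204, 218 and 215 CPM in mock (0.52, SE 0.04, edgeR adjusted p 3.1e-10). ZMYND8 and ZMYND11, which pair a bromodomain with a PWWP domain, both fell, at 62.03 ± 3.79 CPM in IFN-beta against 106 ± 4.47 CPM in mock and at 71.4 ± 1.19 CPM in IFN-beta against 106 ± 4.27 CPM in mock (-0.77 and -0.57).

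Of 15 other histone methyltransferases, 2 were higher and 3 lower (2 and 8 under library size alone). DOT1L, the H3K79 methyltransferase, stood at 143 ± 5.81 CPM in IFN-beta and 107 ± 4.13 CPM in mock (0.42, SE 0.04, edgeR adjusted p 1.46e-07), while NSD1 and WHSC1 (NSD2), both of which methylate H3K36, were lower (-0.37 and -0.25). Of 12 other JmjC proteins, 4 were higher and 3 lower (1 and 4 under library size alone). JMJD6, a lysyl hydroxylase, stood at 191 ± 5.64 CPM in IFN-beta and 141 ± 6.14 CPM in mock (0.44, SE 0.04, edgeR adjusted p 2.34e-08), and PHF2 and JMJD7 were lower (-0.35 and -0.40). Each partner gene named with a value here was called with the same sign in all 17 other settings that tested it.

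**Figure D5:**
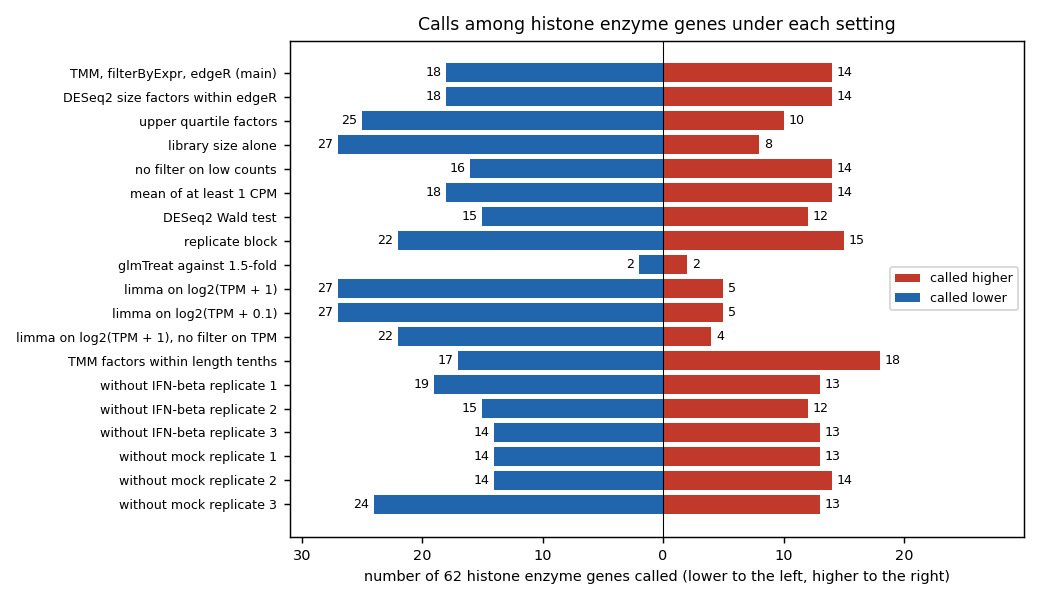
Number of the 62 histone enzyme genes called higher (red, right) and lower (blue, left) in IFN-beta under each setting. The split was 18 higher and 17 lower with length-wise scaling, 8 and 27 under library size alone and 5 and 27 on log2(TPM + 1). The filtered fits on log2 TPM tested 61 of the genes, without KDM5B. It was 4 and 22 on log2(TPM + 1) without a filter and 2 and 2 by glmTreat.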

How the data were processed

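RNA from 3 IFN-beta and 3 mock libraries was sequenced as paired ends, per the labels. The authors deposited expected counts per gene (2322 of 14903 genes held a value that was not whole, rounded here), TPM, and their own comparison with log2 fold changes and p-values with q-values, per the file headers. The submitters' processing notes name GRCg6a and DESeq2. For the aligner, counter, annotation and use of strand: not given in the sources used here. Counts were tested with edgeR 4.0.16 in R 4.3.3 (filterByExpr, TMM factors, glmQLFit and glmQLFTest with no term but the group, Benjamini-Hochberg over 11091 genes, threshold 0.05). Each SE is approximate, from the size of the log2 fold change and its F statistic. Alternatives used DESeq2 1.42.0, limma 3.58.1, other scalings and filters, a replicate block, glmTreat and leaving out each library. A replicate-wise chi-square over its degrees of freedom was 1.67 to 4.48, above sampling noise. Methods were also run on data simulated from the edgeR fit, with no shift along transcript length and with depth-scaled counts in place of TPM. That simulation could not test the differences by length or scaling given here. A RefSeq table of GRCg7b matched 61 of the 62 identifiers and was used for names. The members and lists were chosen with earlier results of these data known. Named members were those changed at least 1.5-fold, those of highest TPM in each class and 11 chosen genes, and up to 3 called genes of smallest p from each partner list, of which 1 is not reported here. Any other member given with values was chosen after its values were seen.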

Additional observations from a re-analysis of the deposited data

How the results depend on the processing

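The number of members called higher, 14, was 8 under library size alone, 5 on log2(TPM + 1) and on log2(TPM + 0.1), 4 on log2(TPM + 1) without a filter and 2 by glmTreat against 1.5-fold, where 2 were lower. By glmTreat 416 of all 11091 genes tested were higher and 246 lower. The members' median log2 fold change of -0.04 was -0.10 under upper quartile factors, -0.14 under library size alone, -0.13 on log2(TPM + 1), -0.14 on log2(TPM + 0.1) and -0.13 on log2(TPM + 1) without a filter. KDM5B was not tested in the filtered fits on log2 TPM. Partner genes called higher, 39, were 23 under upper quartile factors, 20 under library size alone, 16 on log2(TPM + 1) and log2(TPM + 0.1) and 14 without a TPM filter, and those called lower, 49, were 86 under library size alone and 85 in both filtered TPM fits. The median of all genes was lower by up to 0.11 under these scalings, and the cause was not tested. Leaving out 1 library gave 12 to 14 members higher and 14 to 24 lower, a median of -0.05 to -0.02, and 29 to 36 partner genes higher and 41 to 58 lower. Of all genes tested, 2338 to 2808 were then higher and 2005 to 2622 lower. HDAC8, not called at 0.01, was called lower at -0.10 on log2(TPM + 1) and -0.11 on log2(TPM + 0.1), near the median of all genes in each fit. Of 83 genes (the 62 members and 21 named others), 52 kept the same call in each setting. Of their 1409 values in other settings, 74 were no longer called (24 of them with 1 library left out), 61 were newly called and 2, both of HDAC8, had the other direction. Counts by class and list stayed within 1.5 times in 363 of 442 cases. Same-numbered libraries correlated at 0.0831, 0.0755 and 0.0675 in their deviations, and differently numbered ones at -0.0602 to -0.0142. Deviations were taken from group means and cancel within a group, so positive values for some pairs force negative ones for others. The main fit did not take the numbers as pairs, and whether they mark pairs was not tested. Each library correlated best with its own number. With the replicate block 15 members were higher and 22 lower, and 39 and 55 partner genes. Calls over all genes rose too, to 3077 higher and 2792 lower, from 2697 and 2480 without the block. Depth limits KDM5B and HDAC11 most. Promoter motifs were not analysed here.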
